A study of Mus musculus with 204 samples.

Results

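Of 204 cells picked by hand as fluorescent neurons from the distal colon, 51 had at most 1 of 5 pan-neuronal transcripts at the detection level used here. These non-neuronal cells are described here beside the 149 neurons picked with them. All cells came from VGLUT2-tdTomato mice, in which a red fluorescent protein reports Slc17a6, the gene of the vesicular glutamate transporter VGLUT2. The muscle layers with the myenteric plexus, the nerve network between them, had been dissociated and kept in culture overnight, and each red cell was pipetted into its own tube of lysis mix. The labels call every cell a neuron and name no animal, age, sex, treatment or culture, so cells of 1 plate may share all of these and each plate counts as 1 sample. Whether the reporter marks present or past transcription in these cells was not examined, and its own transcript was not analysed here.

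The classes were chosen by the measured values of 5 pan-neuronal genes, Elavl3, Elavl4, Snap25, Stmn2 and Syt1. A cell was non-neuronal with at most 1 of them at 2 or more on the scale of log2(RPKM + 1), which is 3 reads per kilobase of transcript and 1000000 reads. It was a neuron with at least 3. Plate 1 held 13 non-neuronal cells and 53 neurons, plate 2 held 20 and 43, and plate 3 held 18 and 53. Another 4 cells, 3 on plate 2 and 1 on plate 3, had exactly 2 of the 5 genes and belong to neither class. The levels of these 5 genes fixed the classes and are no result, and genes that vary with them across neurons share part of that choice.

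The wall of the colon places many kinds of cell beside its neurons. Smooth muscle contracts the gut, interstitial cells of Cajal pace it, and enteric glia, which like the neurons descend from the neural crest, wrap the neurons and their fibres. Fibroblasts lay down matrix, resident macrophages lie among the ganglia, and blood and lymph vessels run through the muscle, each vessel lined by endothelium and some wrapped by mural cells. Every lineage has transcripts that define it, and 10 lists of such markers were read in each cell. A cell carried a list where at least 50% of its members were at 3 RPKM or more.

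Of the non-neuronal cells, 39 had none of the 5 choosing genes at the threshold and 12 had 1. In 9 of those 12 the gene was Stmn2, with plate 1 cell 62 the highest at 6.31 on the log2 scale. The second highest of the 5 genes, which decides the class, reached 1.79 at most in the non-neuronal cells and had a median of 0.55. Among the 4 cells between the classes it lay between 2.68 and 5.58. The third highest of the 5 was 2.43 or more in every neuron, with a median of 6.76. The 4 cells between the classes were shallow, with 561059 to 924465 reads, and a median of 35.4% of their reads were mitochondrial.

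The ranges of depth overlapped between the classes. The non-neuronal cells had 711434 to 14310571 recovered reads with a median of 3988760, and the neurons 452946 to 13735842 with a median of 4218414. The non-neuronal cells had reads in fewer genes, a median of 10565 against 12763 in neurons, and with every cell thinned to 450000 reads the medians were 8625 in non-neuronal cells and 10965 in neurons. The gap was widest on plate 3, where the median depth was 2022640 reads in non-neuronal cells and 5653723 in neurons, and the median number of genes after thinning was 6994 in non-neuronal cells and 11110 in neurons. Mitochondrial reads had medians of 3.62% in non-neuronal cells and 3.13% in neurons, and the 5 non-neuronal cells above 15% were all on plate 3. Plate 3 cells 47 and 48 were closely alike, with a Pearson correlation of 0.965 across genes, against 0.806 for the next most alike non-neuronal pair of that plate. Some neurons were as alike, with correlations of 0.981 for plate 1 cells 31 and 39 and of 0.988 and 0.987 for the closest pairs of plate 3. The counts of cells 47 and 48 differed by a chi-square of 7.13 per degree of freedom and those of the 3 neuron pairs by 10.9, 6.14 and 5.51. Amplified reads without molecular identifiers are not independent, so this does not tell whether a pair came from 1 cell. All were kept as separate cells, and the leukocyte share, on which cells 47 and 48 bear, is given with and without cell 48. With no molecular identifiers, every interval below covers counting error only, and no test was made between classes because measured values chose them and cells are not replicates.

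**Figure D1:**
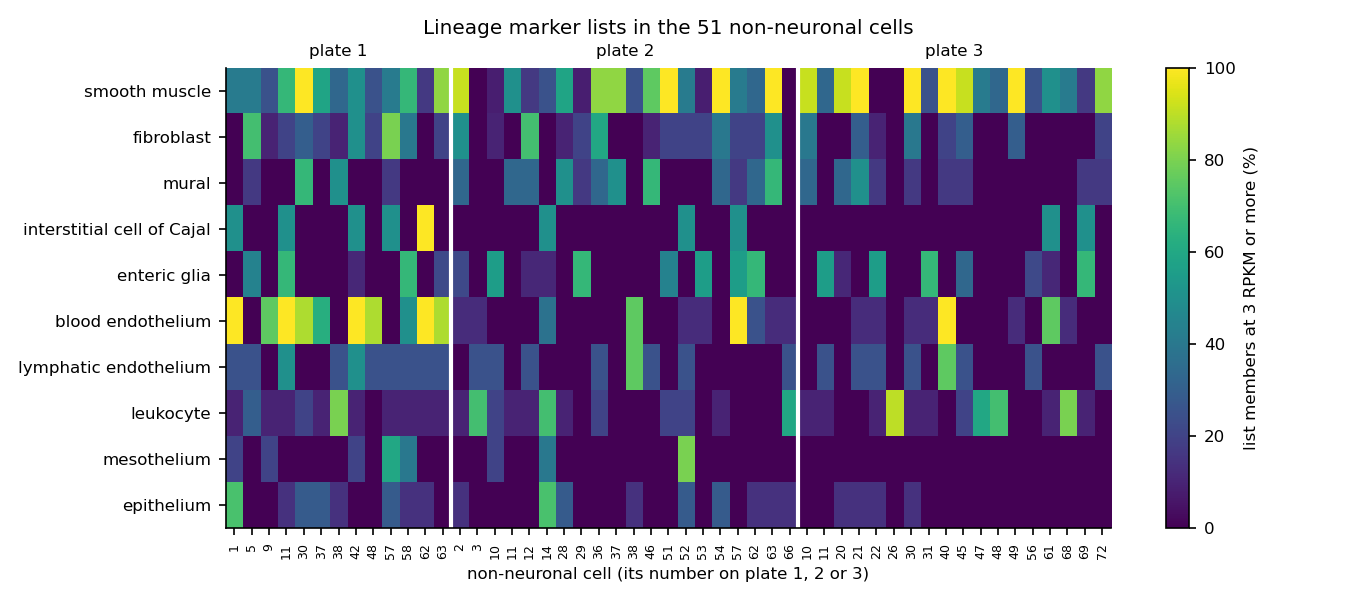
Share of each of the 10 lineage marker lists detected (at 3 RPKM or more, color scale in percent) in each of the 51 non-neuronal cells, in columns ordered by plate and cell number. The blood endothelium list is carried by 10 of 13 cells of plate 1, 2 of 20 of plate 2 and 2 of 18 of plate 3, while the smooth muscle list is carried by 6, 9 and 9 cells.

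Smooth muscle was the lineage most often found, with 24 of the 51 non-neuronal cells carrying its list, or 47.1% (exact 95% interval 32.9 to 61.5%), against 27 of 149 neurons, or 18.1% (12.3 to 25.3%). Blood endothelium followed with 14 non-neuronal cells, or 27.5% (15.9 to 41.7%), against 4 neurons, or 2.68%. Enteric glia came to 11 non-neuronal cells, or 21.6% (11.3 to 35.3%), against 5 neurons, or 3.36%. The interstitial cell of Cajal list, which holds 2 genes and is carried with 1 of them, came to 10 non-neuronal cells against 5 neurons, the leukocyte list to 8 against 4, and the fibroblast list to 7 against 7. The mural list was carried by 7 non-neuronal cells and 1 neuron, the lymphatic list by 4 and 3, the mesothelium list by 2 and 2 and the epithelium list by 2 and 13. All but 1 of the 51 non-neuronal cells thus carried at least 1 lineage list, against 39 of 149 neurons.

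**Figure D2:**
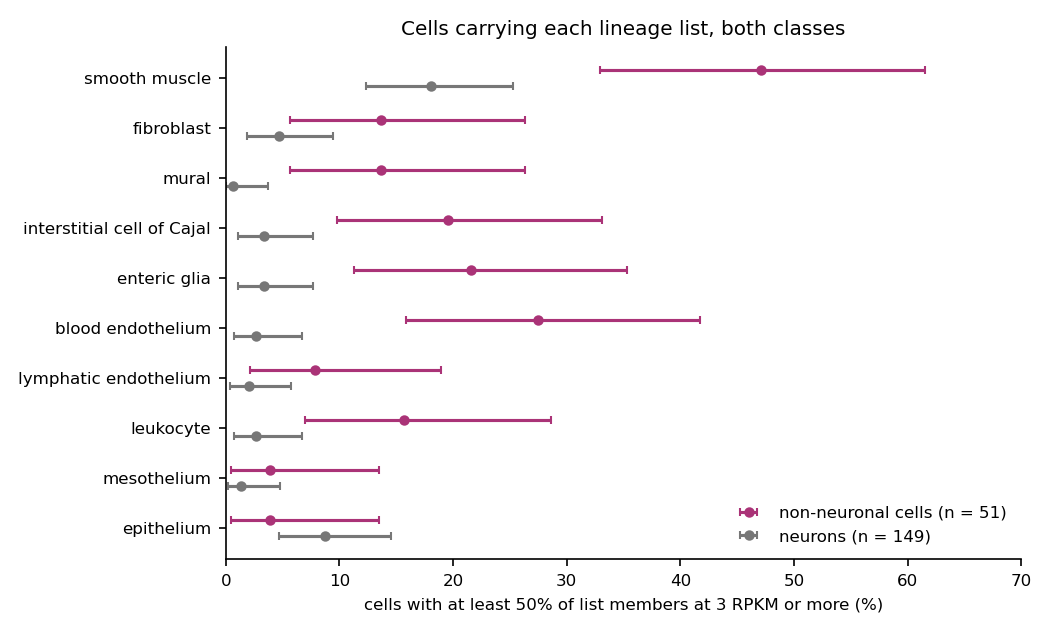
Percent of cells carrying each lineage list, for 51 non-neuronal cells (purple, upper) and 149 neurons (grey, lower), with exact 95% intervals as bars. The smooth muscle list stands at 47.1% of non-neuronal cells and 18.1% of neurons, and the epithelium list at 3.92% and 8.72%.

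Across all genes, more were lower in the non-neuronal cells than higher. The comparison was the log2 ratio of mean RPKM, with 1 added to each mean, of non-neuronal cells over neurons within a plate, for genes with a mean of at least 3 RPKM in either class. On plate 1, 776 of 12167 genes were at least 4-fold higher in non-neuronal cells (6.38%) and 1881 at least 4-fold lower (15.5%). On plate 2 these were 822 of 14349 genes (5.73%) and 2427 (16.9%), and on plate 3 they were 1013 of 13065 genes (7.75%) and 2153 (16.5%). Of 9910 genes compared on every plate, 1.32% were at least 4-fold higher in non-neuronal cells on all 3 and 8.22%, or 815, at least 4-fold lower on all 3. At any size, 24.9% of the 9910 were higher in non-neuronal cells on all 3 and 40.6% lower on all 3. The median ratio over compared genes was -0.16, -0.24 and -0.32 on plates 1, 2 and 3. The number of higher genes depended on which plates had to share the direction: it was 362 without plate 1, 255 without plate 2 and 216 without plate 3.

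The 12 genes with the largest ratios on their smallest plate, among those found in at least 50% of non-neuronal cells, were Des, Zfp36l1, Hmox1, Fn1, Myl9, Acta2, Cyr61, Igfbp4, Tpm2, Ifitm3, Tgm2 and Smtn. Des, Myl9, Acta2, Tpm2 and Smtn encode parts of the muscle filaments and are taken up below. The other 7 are not tied to 1 lineage. Ifitm3, an interferon-induced membrane protein that limits virus entry, was the most widely shared: it was at 3 RPKM or more in all 51 non-neuronal cells and in 72 of 149 neurons. On plate 1 its lowest, median and highest values were 143.2, 1423 and 2587 RPKM in non-neuronal cells, against 0.374, 8.58 and 2125 RPKM in neurons. On plate 2 they were 19.2, 489 and 6053 RPKM in non-neuronal cells, against 0, 1.57 and 978 RPKM in neurons. On plate 3 they were 50.8, 668 and 4433 RPKM in non-neuronal cells, against 0, 1.13 and 1266 RPKM in neurons. The ranges overlapped on every plate, with some neurons as high as the non-neuronal cells, and the medians lay far apart. The log2 ratios were 2.87, 3.45 and 3.82 on plates 1, 2 and 3.

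Zfp36l1 encodes a protein that binds AU-rich messages and speeds their decay. Its medians in non-neuronal cells were 60.8 RPKM on plate 1, 47.2 on plate 2 and 20.4 on plate 3, against 0.144, 0.235 and 0 RPKM in neurons, and its log2 ratios were 4.38, 3.93 and 3.89. It was detected in 41 of 51 non-neuronal cells and in 35 of 149 neurons. Hmox1, the stress-induced enzyme that breaks down heme, had medians of 1172, 301 and 286 RPKM in non-neuronal cells, against 16.1, 14.2 and 4.15 RPKM in neurons. It was detected in 48 of 51 non-neuronal cells and 96 of 149 neurons, so it was common in both classes and higher in the first, with log2 ratios of 3.42, 3.57 and 4.59. Its highest cell, plate 3 cell 26 at 9888 RPKM, carried the leukocyte list, and the ratio of plate 3 was 3.97 without it.

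Fn1, which encodes the matrix protein fibronectin, was detected in 37 of 51 non-neuronal cells and 18 of 149 neurons, with log2 ratios of 3.50, 4.44 and 3.35. Tgm2, an enzyme that cross-links matrix proteins, was detected in 37 of 51 and 22 of 149, with log2 ratios of 2.86, 4.69 and 3.96. Both were spread over many non-neuronal cells, and with each plate's highest cell removed the lowest ratio was 2.91 for Fn1, on plate 1 without cell 62, and 2.64 for Tgm2. Igfbp4, a secreted binder of insulin-like growth factors, was detected in 31 of 51 non-neuronal cells and 23 of 149 neurons, with log2 ratios of 2.89, 3.10 and 3.80, and 2.19 on plate 1 without cell 37 and 2.48 on plate 2 without cell 63. Cyr61, a secreted target of the YAP pathway that responds to adhesion and stretch, was the most uneven of the 7. It reached 3 RPKM in 13 of 13 non-neuronal cells of plate 1, 14 of 20 of plate 2 and 9 of 18 of plate 3, against 28 of 53, 11 of 43 and 12 of 53 neurons. Its log2 ratios were 3.53, 2.90 and 5.54, and without plate 3 cell 61, at 7861 RPKM, the ratio of plate 3 was 3.86.

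**Figure D3:**
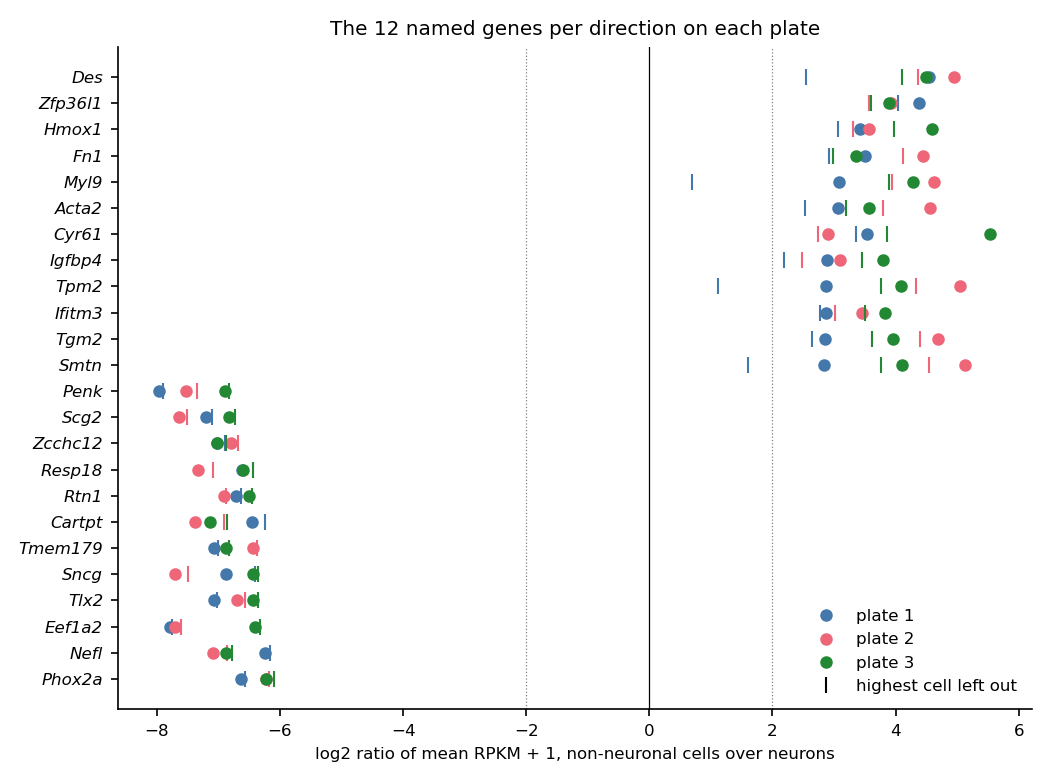
Log2 ratio of mean RPKM + 1 in non-neuronal cells over neurons for the 12 genes per direction named by size, on plates 1, 2 and 3 (circles), and the same with the highest cell of the higher class left out (bars). Higher genes lie between 2.83 and 5.54 and lower genes between -7.96 and -6.23, and without plate 1 cell 30 the plate 1 ratios of Myl9, Tpm2 and Smtn are 0.69, 1.11 and 1.60.

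The smooth muscle genes encode the contractile filaments and the proteins that anchor and regulate them. Acta2 (alpha smooth muscle actin, chromosome 19, 34241090 to 34255590, minus strand, mm10) was at 3 RPKM or more in 38 of 51 non-neuronal cells and in 58 of 149 neurons. On plate 1 its values lay between 2.62 and 2215 RPKM in non-neuronal cells, with a mean of 462, and between 0 and 742 RPKM in neurons, with a mean of 54. On plate 2 its lowest, median and highest values were 0, 4.12 and 10271 RPKM in non-neuronal cells, against 0, 1.18 and 759 RPKM in neurons. On plate 3 they were 0.708, 539 and 9859 RPKM in non-neuronal cells, against 0, 1.8 and 5356 RPKM in neurons. Non-neuronal cells thus spread over the whole range of this gene, from above every neuron to the low values of most neurons, and the classes overlapped on every plate. The log2 ratios were 3.07, 4.56 and 3.57, and 3.79 on plate 2 without cell 54. Acta2 and the enteric actin gene Actg2 are near-identical copies, so reads could have been split between them by the counting.

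Des (desmin, the muscle intermediate filament, chromosome 1, 75360329 to 75368579, plus strand, mm10) was detected in 30 of 51 non-neuronal cells and 48 of 149 neurons. Its medians in non-neuronal cells were 10.3, 20.6 and 4.12 RPKM on plates 1, 2 and 3, against 0.503, 3.16 and 1.02 RPKM in neurons. The log2 ratios of 4.55, 4.94 and 4.49 rest on the high cells: the highest values were 970 RPKM in plate 1 cell 30, 5573 in plate 2 cell 63 and 7941 in plate 3 cell 10. Without plate 1 cell 30 the ratio of plate 1 was 2.54. Tagln (transgelin, an actin-binding protein of smooth muscle, chromosome 9, 45929619 to 45936058, minus strand, mm10) was detected in 35 of 51 non-neuronal cells and 68 of 149 neurons. Its log2 ratios were 2.15, 5.48 and 4.11. That of plate 1 was 0.74 without cell 30 and that of plate 2 was 4.83 without cell 54.

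Of the 12 smooth muscle genes, 10 were compared on every plate and 9 of those were at least 4-fold higher in non-neuronal cells on all 3, against 1.32% of all genes compared on every plate. The exception was Lmod1 (leiomodin), with log2 ratios of 1.57, 2.91 and 3.04. The list's median ratio was 3.29, 4.94 and 3.97 on the 3 plates, but markers were listed because they differ between such cells, so this describes the class and is no test of it. Plate 1 had 1 cell with all 12 genes, cell 30, which also carried the mural and endothelial lists and had 1543 RPKM of Acta2, 970 of Des, 322 of Myh11 (smooth muscle myosin) and 1023 of Cnn1 (calponin). Without it the plate 1 ratio of Myh11 was 0.49, against 3.88 with it. All 12 genes were also detected in plate 2 cells 51, 54 and 63 and plate 3 cells 21, 30, 40 and 49, each with at least 859 RPKM of Des and 1193 of Acta2.

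Among the 24 cells that carried the muscle list, Des and Tpm2 (beta tropomyosin) were detected in all 24, Actg2 and Smtn (smoothelin) in 23, Acta2 and Tagln in 22, Cnn1 and Mylk (myosin light chain kinase) in 21 and Myh11 in 20. The transcription coactivator Myocd, which drives smooth muscle genes, was detected in 11 and Lmod1 in 11. In the 27 other non-neuronal cells Myocd and Lmod1 were not detected at all, and Myh11 was detected in 1. Acta2 was less selective and was still detected in 16 of those 27, with a median of 8.55 RPKM against 1115 RPKM in the 24. Reads could also have reached a well from its neighbours: with the rate measured from genes nearly private to 1 cell, 5.09 misassigned Acta2 reads were expected in a cell of plate 1, 12.7 on plate 2 and 9.64 on plate 3, and the non-neuronal medians were 236, 44.5 and 1476 reads. When only values above 1% of the plate's highest count of a gene were counted, 33.3% of non-neuronal cells carried the muscle list.

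Myl9, which encodes a regulatory light chain of smooth muscle myosin, is shown by its promoter because it holds a CArG box, the binding motif of serum response factor through which myocardin acts on muscle genes. As a pattern the motif is the same on both strands, though the bases of a given box need not be. It was looked for, after the values were known, in 250 bases before to 50 after the start site of Myl9 and the 12 muscle list genes. Promoters of 9 of these 13 genes were in the RefSeq table of build GRCm38.p6. Only 1 of the 9 held the motif, and it was Myl9, which is not on the muscle list. None of the muscle list promoters present held it in the stretch searched. Boxes farther away, or departing from the pattern, would not be counted, so these genes may still have some. The start sites were those of the RefSeq table and need not be a gene's outer end. For Mylk the 250 bases begin at 34784700, inside the gene at 34745210 to 35002420 on chromosome 16. Over all 32851 promoters the share with the motif was 1.63%. Since Myl9 is shown for holding the motif, its match says nothing on how common the motif is in muscle genes. The 250 bases before the Myl9 start site, chr2:156775214-156775463 on the plus strand, read 5′ to 3′ as follows, with the CArG box in capitals, beginning at position -161 from the start site.
Myl9: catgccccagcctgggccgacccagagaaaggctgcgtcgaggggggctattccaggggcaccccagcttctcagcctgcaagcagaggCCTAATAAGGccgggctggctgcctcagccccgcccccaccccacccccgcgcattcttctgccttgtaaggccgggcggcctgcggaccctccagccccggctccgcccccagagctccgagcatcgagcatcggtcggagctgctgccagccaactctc
Myl9 itself had highest values of 2566, 17238 and 22648 RPKM in non-neuronal cells of plates 1, 2 and 3, against 298, 2156 and 8206 RPKM in neurons. Its log2 ratios were 3.08, 4.62 and 4.28, and 0.69 on plate 1 without cell 30. The match is a description of letters, and binding there was not measured.

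Enteric glia are marked by Sox10, the transcription factor of the neural crest that glia keep and neurons lose. Sox10 (chromosome 15, 79154908 to 79165240, minus strand, mm10) was at 3 RPKM or more in 18 of 51 non-neuronal cells, or 35.3%, and in 20 of 149 neurons, or 13.4%. On plate 1 its lowest, median and highest values were 0, 0.172 and 292 RPKM in non-neuronal cells, against 0, 0.123 and 246 RPKM in neurons. On plate 2 they were 0, 0.144 and 561 RPKM in non-neuronal cells, against 0, 0.0603 and 94.3 RPKM in neurons. On plate 3 they were 0, 0 and 510 RPKM in non-neuronal cells, against 0, 0 and 35.6 RPKM in neurons. The gene was thus on in a minority of non-neuronal cells and near 0 in the rest, and the cells with it stood above all neurons of plates 2 and 3 but not of plate 1. The log2 ratios were 0.56, 4.67 and 5.80, and that of plate 1 was -1.30 without cell 58.

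The 11 cells that carried the glia list were plate 1 cells 11 and 58, plate 2 cells 10, 29, 53, 57 and 62 and plate 3 cells 11, 22, 31 and 69. All 11 had Sox10, at 67.9 to 561 RPKM with a median of 340. All 11 also had Ngfr, the p75 neurotrophin receptor, at 226 to 1352 RPKM, while 6 of the other 40 non-neuronal cells had it, and Ngfr was not part of the glia list. Foxd3, a neural crest transcription factor, and the cadherin Cdh19 were each detected in 10 of the 11, and Entpd2, a glial enzyme that breaks down ATP, in 7. In the 40 other non-neuronal cells Foxd3 was detected in 1 and Cdh19 in 4. The mature glial markers were weaker: the calcium-binding protein S100b was detected in 6 of the 11 at up to 42.7 RPKM and the filament protein Gfap in 3. S100b had log2 ratios of -2.25, -0.09 and -1.03, which turned on single neurons: without the highest neuron of each plate, such as plate 1 cell 40 at 747 RPKM, they were -0.67, 0.24 and 0.33.

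Sox10 was also detected in 7 non-neuronal cells that did not carry the glia list, with 1 to 4 of its 9 genes detected, Sox10 included. The highest was plate 3 cell 56, the 1 non-neuronal cell with no lineage list, where it stood at 446 RPKM beside 562 RPKM of Acta2, 667 of Tagln and 68.4 of Carmn, a long noncoding RNA of smooth muscle. That cell had 134.5 RPKM of Ngfr and 0.215 of Foxd3. Across the non-neuronal cells Sox10 and Acta2 were both detected in 13. Plate 2 cells 2 and 51 and plate 3 cell 61 carried the muscle list with 123.5, 265 and 186.7 RPKM of Sox10, and so did plate 1 cell 63 and plate 3 cell 45. Whether such cells were 1 cell or more than 1 in a tube was not tested.

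**Figure D4:**
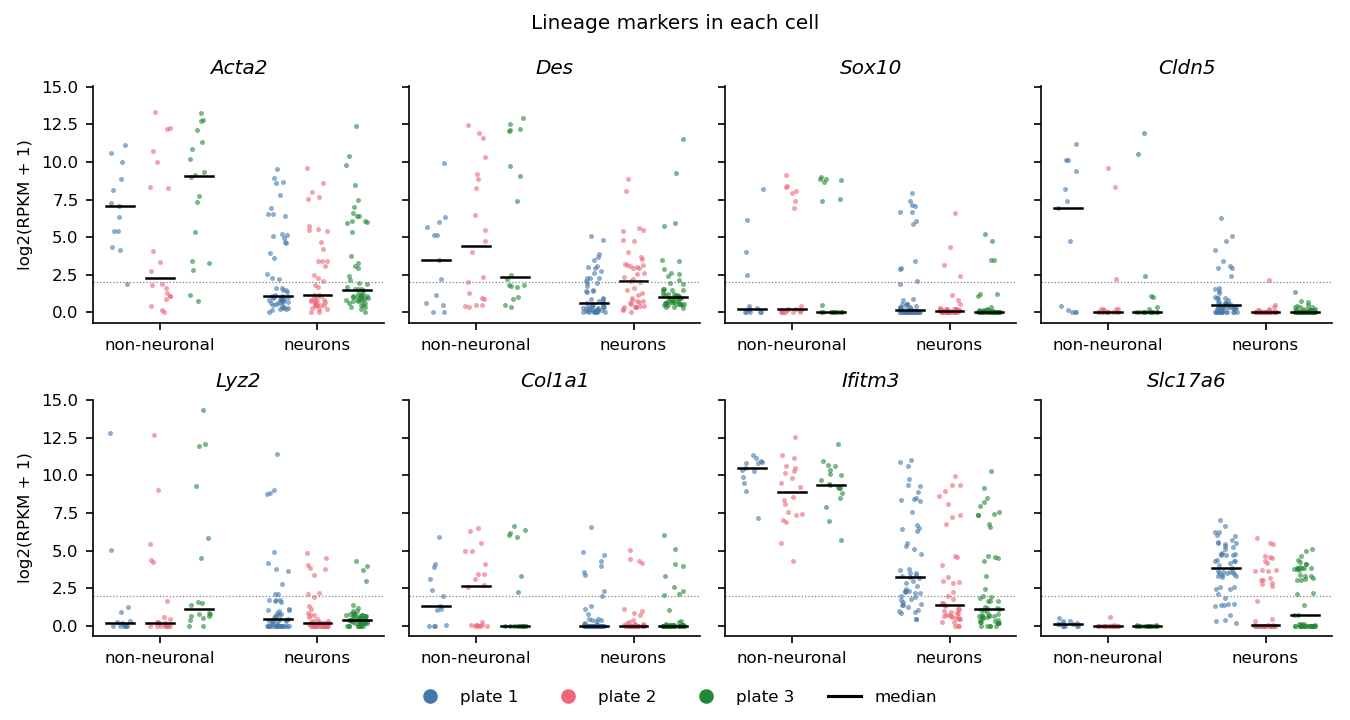
Log2(RPKM + 1) of 8 genes in every non-neuronal cell (left) and every neuron (right), by plate (color), with black bars at medians and a dotted line at the detection level of 2. Sox10, Cldn5 and Lyz2 are high in few non-neuronal cells and near 0 in the others, Ifitm3 is above the line in all 51, and Slc17a6 is below it in all 51.

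Blood vessel endothelium was found mostly on plate 1. Its list was carried by 10 of 13 non-neuronal cells there, or 76.9% (46.2 to 95%), by 2 of 20 cells of plate 2, or 10% (1.23 to 31.7%), and by 2 of 18 cells of plate 3, or 11.1% (1.38 to 34.7%), against 2 of 53, 1 of 43 and 1 of 53 neurons. Plate 1 has its own set of library names and sequencer indices, so the cells picked and the libraries made cannot be told apart here. Cldn5 (claudin 5, a tight junction protein of endothelium, chromosome 16, 18776847 to 18778262, plus strand, mm10) was detected in 8 of 13 non-neuronal cells of plate 1, with a median of 123.4 and a highest value of 2361 RPKM, against 9 of 53 neurons, with a median of 0.377 and a highest value of 76.6 RPKM. On plate 2 it was detected in 3 of 20 non-neuronal cells and 1 of 43 neurons, and on plate 3 in 3 of 18 and 0 of 53. On those 2 plates it was thus rare, and a few cells carried nearly all of it: plate 2 cell 38 had 769 RPKM and plate 3 cell 40 had 3850. The log2 ratios were 6.54, 5.65 and 8.07, and 5.91, 4.04 and 6.30 with each plate's highest cell removed.

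In the 14 cells with the endothelial list, Cdh5 (the cadherin of endothelial junctions) was detected in all 14 with a median of 207 RPKM, Pecam1 and the receptor Tie1 in 13, and the receptor Tek, the sialomucin Emcn, Cldn5 and Egfl7 in 12. In the 37 other non-neuronal cells Cdh5 and Tie1 were not detected. Kdr, the main VEGF receptor of blood vessels, was detected in 8 of the 14. All 8 genes of the list were at least 4-fold higher in non-neuronal cells on plate 1, against 6.38% of all genes compared there. On plate 2 it was 1 of 5 compared, against 5.73% of all genes, and on plate 3 it was 5 of 6, against 7.75%. Several genes outside the list had their highest non-neuronal level on plate 1: Mgp (matrix Gla protein) had a mean of 392 RPKM there, Bmp4 of 83.2 and Ednrb of 63.8, against 2.44, 1.37 and 0.908 RPKM in the neurons of that plate. Plate 1 cell 48 had endothelial Pecam1 at 236 RPKM with 2215 RPKM of Acta2 and 218 of Nkx2-3, a homeobox gene of gut mesenchyme and some gut vessels, but 0.0987 of Cldn5. Lymphatic markers were weaker. Of the 4 cells with that list, all had Flt4 and Pdpn but 1 had Prox1, the transcription factor of lymphatic identity, at 17.6 RPKM in plate 3 cell 40.

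Leukocyte genes were high in few cells. The list, mostly of macrophage genes, was carried by 1 of 13, 3 of 20 and 4 of 18 non-neuronal cells on plates 1, 2 and 3, or 15.7% of all 51 (7.02 to 28.6%). Counting plate 3 cells 47 and 48 as 1 gave 7 of 50, or 14% (5.82 to 26.7%). Against these stood 4 of 53 neurons on plate 1 and none of 43 and 53 on plates 2 and 3, so shares of up to 6.98% and 5.66% are possible there. Plate 1 neurons 31 and 39, the closely alike pair, were 2 of those 4. Lyz2, lysozyme of macrophages (chromosome 10, 117277331 to 117282321, minus strand, mm10), has a near-identical neighbor in Lyz1, and reads may be shared between them. Its median was 0.11, 0.149 and 1.18 RPKM in non-neuronal cells of plates 1, 2 and 3, against 0.36, 0.15 and 0.328 RPKM in neurons, and its highest values were 7211, 6624 and 20739 RPKM in non-neuronal cells, against 2716, 27.8 and 18.8 RPKM in neurons. Most cells of both classes lacked it and single cells held it. The log2 ratios were 2.78, 6.61 and 9.48, and with each plate's highest cell removed they were -4.40, 3.14 and 7.86. On plate 1 cell 38 alone gave the sign.

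In the 8 leukocyte list cells, Lyz2, Cd68 (a lysosomal protein), Tyrobp and Fcer1g (signalling adaptors) were detected in all 8, and Adgre1 (F4/80) and Csf1r (the CSF1 receptor) in 7. Other members were less even. The complement gene C1qb was detected in 6 of the 8. C1qa and Ptprc (CD45) were each detected in only 3, with medians of 0.444 and 0.204 RPKM. Cx3cr1, a chemokine receptor of many resident macrophages, was not detected in any non-neuronal cell, with a highest value of 1.15 RPKM. The cells differed in the genes of antigen presentation. Cd74, the chaperone of class II molecules, stood at 8775 RPKM in plate 1 cell 38 and at 13232 in plate 2 cell 3, which held 98.6% of all Cd74 reads of its plate. Plate 3 cells 47 and 48 both had the platelet factor gene Pf4, at 5182 and 4560 RPKM, and both had some Acta2, at 207 and 161.7 RPKM. Plate 2 cell 14 passed the list at low levels, with 41.5 RPKM of Lyz2 and 28.2 of Cd68, and its leading genes were of another kind, given below. Plate 1 cell 5, which carried only the fibroblast list, held 91.4% of the plate's Ccr7 reads at 843 RPKM and 99.1% of its Ccl22 reads at 561 RPKM, both genes known for migratory dendritic cells.

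Fibroblast genes were low for a list of abundant transcripts. Col1a1 (a chain of type I collagen, chromosome 11, 94936224 to 94953042, plus strand, mm10) was detected in 24 of 51 non-neuronal cells, or 47.1%, and 21 of 149 neurons, or 14.1%. Its lowest, median and highest values were 0, 1.49 and 57.4 RPKM in non-neuronal cells of plate 1, against 0, 0 and 94.6 RPKM in neurons. On plate 2 they were 0, 5.14 and 87.9 RPKM in non-neuronal cells, against 0, 0 and 31.2 RPKM in neurons, and on plate 3 they were 0, 0 and 96.4 RPKM against 0, 0 and 63.9 RPKM. The classes overlapped throughout, and the log2 ratios were 0.86, 2.45 and 2.53, with 0.01 on plate 1 without cell 30. Des was also detected in 20 of the 24 non-neuronal cells with Col1a1.

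Of the 10 fibroblast genes, 3 were compared on every plate. At any size 2 of them were higher in non-neuronal cells on all 3, against 24.9% of all genes, and none was at least 4-fold higher or lower on all 3. Dcn (decorin) had log2 ratios of -0.40, 2.44 and -0.02, and Dpt (dermatopontin), which was under a mean of 3 RPKM on plate 3, of 3.09, 1.10 and -1.96, so neither kept a direction. Single cells set these signs: without its highest neuron, cell 47, plate 1 gave 0.69 for Dcn, and without cell 12 plate 2 gave -0.80 for Dpt. The fibroblast list was carried by 3, 4 and 0 non-neuronal cells on plates 1, 2 and 3, and 4 of these 7 also carried the muscle list. Those with it alone were plate 1 cell 5, described above, and plate 2 cell 12, which had 77.2 RPKM of Col1a1 and 0.123 of Acta2. The stromal receptor Pdgfra was detected in 3 of the 7 and in none of the other 44. Mural markers came almost always with muscle: 6 of the 7 cells with the mural list carried the muscle list, and the other was plate 1 cell 38. Kcnj8, a potassium channel subunit of pericytes, had ratios of 2.67, 3.71 and 2.27, but 0.42 on plate 1 without cell 30 and 2.67 on plate 2 without cell 54.

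The 2 genes used for interstitial cells of Cajal, the receptor Kit and the chloride channel Ano1, were together in 1 non-neuronal cell, plate 1 cell 62, which also carried the endothelial list. Kit was detected in 6 non-neuronal cells, that cell included, and in 2 neurons, and Ano1 in 5 and 3. No non-neuronal cell and 1 neuron carried that list and no other. The mesothelium list was carried by plate 1 cell 57 and plate 2 cell 52, with 17.2 and 7.86 RPKM of Wt1, the transcription factor of that lining, while its marker Upk3b was at 0 in both. The epithelium list was carried by plate 1 cell 1, an endothelial cell by its list, and by plate 2 cell 14. That cell had 8389 RPKM of Krt18, 5562 of Krt8, 6185 of Cldn4, 1112 of Epcam and 266 of Cdh1, keratins and junction proteins of epithelia. It also had 5092 RPKM of Pbsn (probasin) and 1401 of Tgm4, both known as secretory genes of the prostate, and held 99.2% and 98.1% of their reads on the plate. No other cell of plate 2 had more than 34.3 RPKM of Pbsn or 19.4 of Tgm4, and on plate 1 Pbsn reached 0.508 RPKM in non-neuronal cells and 85 RPKM in neurons. Cell 14 was also the deepest of the 204, with 14310571 reads and 18216 genes, and its Acta2 and Des were 1.06 and 0.391 RPKM.

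Several lineage lists often met in 1 library. Of the 51 non-neuronal cells, 26 carried 1 lineage list, 13 carried 2, 9 carried 3 and 2 carried 5, both of the last on plate 1. A second list need not be a second lineage. All 4 cells with the lymphatic list carried the blood endothelium list, and 6 of the 7 with the mural list carried the muscle list. The interstitial cell of Cajal list needs only 1 gene, and 0 of its 10 non-neuronal carriers had it alone. Cells with 2 or more lists were 10 of 13 non-neuronal cells of plate 1, 10 of 20 of plate 2 and 4 of 18 of plate 3, against 21 of 149 neurons. Muscle met endothelium in 8 cells, mural genes in 6 and fibroblast genes in 4, so 8 of the 24 muscle list cells and 8 of the 14 endothelial list cells were the same cells. Glia and leukocyte lists were the most separate: 7 of 11 and 6 of 8 carriers had that list alone, against 9 of 24 for muscle and 2 of 14 for endothelium. Cells with several lists had median depths near the others, 3980230 against 4090781 reads, and more genes at equal depth, a median of 9212 against 7617. These medians pool the plates, over which cells with several lists were unevenly spread. Over all non-neuronal cells the median number of genes at equal depth was 9920, 9188 and 6994 on plates 1, 2 and 3. Plate and number of lists thus cannot be told apart in the pooled medians. The part of cells with several lists in the shares above was not tested. With the non-neuronal cells limited to those with at most 1 list, 33.3% of 27 carried the muscle list and 25.9% the glia list. That limit counts the muscle and glia lists themselves, so it shifts these shares by construction.

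Neuronal transcripts other than the choosing genes were low in the non-neuronal cells, as the choice largely fixes. All 12 listed were at least 4-fold lower on every plate, against 8.22% of all genes, with list medians of -5.92, -5.86 and -5.81. The 12 genes with the largest smallest-plate ratios were Penk, Scg2, Zcchc12, Resp18, Rtn1, Cartpt, Tmem179, Sncg, Tlx2, Eef1a2, Nefl and Phox2a. They include peptide precursors (Penk for enkephalins, Cartpt for CART), a granin of secretory vesicles (Scg2), a neurofilament (Nefl), the neuronal elongation factor Eef1a2 and the transcription factors of enteric neurons Phox2a and Tlx2. Zcchc12 was detected in 1 of 51 non-neuronal cells and 137 of 149 neurons. Eef1a2 had a lowest, median and highest value of 0.541, 0.924 and 2.75 RPKM in non-neuronal cells of plate 1, against 4.21, 413 and 1138 RPKM in neurons, with no overlap. On plate 2 these were 0, 0.591 and 1.89 RPKM in non-neuronal cells, against 8.13, 349 and 1395 RPKM in neurons, again with no overlap, and on plate 3 the classes did overlap.

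Some neuronal RNA was still counted in them. Penk (chromosome 4, 4133531 to 4138819, minus strand, mm10), the preproenkephalin gene, was at 3 RPKM or more in 50 of 51 non-neuronal cells and in all 149 neurons. Its medians were 15.9, 6.23 and 11.6 RPKM in non-neuronal cells of plates 1, 2 and 3, against 4719, 995 and 3662 RPKM in neurons. The reads behind the non-neuronal medians were 81, 46.5 and 44.5, and 102.8, 85.4 and 66.7 misassigned reads were expected per cell from the plates' totals. These medians of Penk reads were below the estimate for reads carried between wells. Uchl1, a ubiquitin hydrolase abundant in neurons, differed: its non-neuronal medians were 401, 530 and 27 reads, against 24.5, 33.4 and 22.7 expected. Its medians thus lay far above the estimate on plates 1 and 2 and only slightly above it on plate 3. Its log2 ratios were -3.45, -3.26 and -3.55, and it was detected in 42 of 51 non-neuronal cells. The list of other neuronal genes was still carried, with at least 50% of its members detected, by 11 of 51 non-neuronal cells and by all 149 neurons. Of the 11 cells, 4, 1 and 6 were on plates 1, 2 and 3, and none had all members.

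Slc17a6 (chromosome 7, 51622006 to 51671119, plus strand, mm10), whose activity the reporter was built to show, was detected in 0 of 51 non-neuronal cells, so a share of up to 5.88% is possible, against 86 of 149 neurons. Its highest values in non-neuronal cells were 0.424, 0.463 and 0.0453 RPKM on plates 1, 2 and 3, against 128.3, 55.9 and 34 RPKM in neurons. The neurons themselves were divided, with 43 of 53, 18 of 43 and 25 of 53 above 3 RPKM on plates 1, 2 and 3. The log2 ratios were -4.48, -3.11 and -2.89. No non-neuronal cell carried the list of 10 transmitter genes, against 130 of 149 neurons, and 9 of its 10 genes were at least 4-fold lower on all plates, against 8.22% of all genes. The tenth, Nos1 (neuronal nitric oxide synthase), had ratios of -1.91, -4.24 and -4.47. Of the acetylcholine genes, Chat, the synthetic enzyme, was detected in 1 of 51 non-neuronal cells and in 71.8% of neurons.

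Transcription factors divided the same way. Of 8 listed factors of enteric neuron development, 6 were compared on every plate. Of these 6, Tlx2, Hoxb5, Tbx3 and Sox11 were at least 4-fold lower in non-neuronal cells on all plates, against 8.22% of all genes. Choosing the classes by neuronal genes largely fixes this direction. The list of 8 was carried by 10 of 51 non-neuronal cells and by 138 of 149 neurons. Sox4 was the exception and was higher in non-neuronal cells, with log2 ratios of 2.00, 2.22 and 0.88, and 1.17 on plate 1 without cell 9. Of the 12 mesenchyme factors, 4 were compared on every plate and all 4 were higher in non-neuronal cells on all 3, against 24.9% of all genes. At least 4-fold higher on all 3 was 1 of the 4, against 1.32% of all genes. That gene, Hlx, a homeobox factor of gut mesenchyme, had ratios of 3.63, 2.46 and 2.05, with 1.35 on plate 3 without cell 69. Foxf1, a forkhead factor of gut mesenchyme, had ratios of 1.97, 2.71 and 1.78, and Gata6, a zinc finger factor, of 3.21, 1.88 and 2.83, and without the highest cell of plate 3 these 2 genes had ratios of 0.66 and 2.03 there. Snai2, a zinc finger factor of migrating mesenchyme and neural crest, went the other way. It was detected in 1 of 51 non-neuronal cells and 31 of 149 neurons, with ratios of -0.93, -2.43 and -2.39, the first with means below 3 RPKM in both classes.

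Many matrix and adhesion genes were higher in non-neuronal cells. The matrix list was carried by 32 of 51 non-neuronal cells, or 62.7% (48.1 to 75.9%), against 19 of 149 neurons, or 12.8% (7.86 to 19.2%). Of its 18 genes, 13 were compared on every plate, 11 were higher on all 3, against 24.9% of all genes, and 4 were at least 4-fold higher, against 1.32%: Fn1, Sparc, Col4a2 and Mgp. Sparc, a collagen-binding matricellular protein, had medians of 168.5, 112.5 and 154.8 RPKM in non-neuronal cells, against 1.15, 0.796 and 0.27 RPKM in neurons, with log2 ratios of 3.28, 2.42 and 2.41. Mgp, which holds back calcification, was uneven, with ratios of 6.84, 3.79 and 3.85, which were 5.69, 2.47 and 1.82 with each plate's highest cell removed. Timp1, an inhibitor of matrix proteases, was lower on plates 2 and 3, with ratios of 0.58, -0.11 and -2.25, and it turned on single cells: without the highest neuron of plate 2, cell 15, that plate's ratio was 3.22.

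The adhesion and cytoskeleton list was common to both classes, in 50 of 51 non-neuronal cells, or 98%, and 94.6% of neurons. Of its 14 genes, 10 were higher on all plates, against 24.9% of all genes, and 1, Tagln2, lower on all, against 40.6%. The 4 that were at least 4-fold higher, against 1.32% of all genes, included the integrin Itga5, the caveolar coat gene Cav1 and the actin cross-linker Flna. Vim (vimentin) had medians of 738, 378 and 139.1 RPKM in non-neuronal cells, against 49.6, 43.8 and 45.1 RPKM in neurons, with ratios of 1.87, 2.88 and 1.84. The galectin Lgals1 was high in both, with means of 683, 1431 and 1378 RPKM in non-neuronal cells, against 712, 714 and 932 RPKM in neurons.

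Trophic ligands differed in direction. Of 12 listed, 5 were compared on every plate, of which 4 were higher in non-neuronal cells on all 3, against 24.9% of all genes, and 1 was lower, against 40.6%. No non-neuronal cell and 3 neurons carried the list. Gdnf, the ligand of the receptor Ret, was detected in 14 of 51 non-neuronal cells (27.5%) and 14 of 149 neurons (9.4%), with log2 ratios of 0.89, 2.21 and 3.42. Its highest value was 220 RPKM, in the glia list cell 69 of plate 3, without which that plate's ratio was 2.05, and plate 2 had 1.38 without cell 51. Nrtn, a relative of Gdnf, was detected in 13 of 51 and 7 of 149 cells, with ratios of 1.96 and 4.32 on plates 2 and 3, and on plate 1 its mean was below 3 RPKM in both classes. Median values of both ligands were at or near 0 in both classes, and no list member was at least 4-fold higher on every plate. Csf1, the growth factor of macrophages, was higher on all 3, with ratios of 1.76, 1.16 and 1.19, or 1.00, 0.58 and 0.44 with each plate's highest cell removed. Its detection was alike in the classes, 28 of 51 non-neuronal cells (54.9%) and 83 of 149 neurons (55.7%). Over all plates its medians were 5.5 RPKM in non-neuronal cells and 4.53 RPKM in neurons. The lower gene was Nrg1, neuregulin 1, a ligand of ErbB receptors, which was detected in 1 of 51 non-neuronal cells and 95 of 149 neurons, with ratios of -2.70, -1.97 and -2.66. Bdnf, a neurotrophin, was detected in 0 of 51 non-neuronal cells, so a share of up to 5.88% is possible, and in 37 of 149 neurons.

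The receptors differed in direction too. Of 12 listed, 5 were compared on every plate, 1 was higher in non-neuronal cells on all 3, against 24.9% of all genes, and 2 were lower, against 40.6%. Ret, the signalling receptor for Gdnf and Nrtn, is not among the 12 and these counts do not cover it. Ret had medians of 0.208, 0.0553 and 0.206 RPKM in non-neuronal cells of plates 1, 2 and 3, against 24.3, 13.9 and 35.6 RPKM in neurons, and was detected in 2 of 51 non-neuronal cells and 76.5% of neurons. The listed co-receptor Gfra1 did not follow Ret, with ratios of -0.20, 0.71 and 1.97 and detection in 16 of 51 non-neuronal cells and 31 of 149 neurons. Ngfr had ratios of -1.55, 1.89 and 2.13, with the glia list cells setting its high end. Gfra2, the co-receptor for Nrtn, was lower on all plates, with ratios of -2.33, -0.51 and -2.04. The higher gene was Ednrb, the endothelin receptor B, with detection in 19 of 51 non-neuronal cells and 10 of 149 neurons. Its ratios were 5.09, 0.14 and 2.25, with -0.25 on plate 2 without cell 63, and its highest cell was plate 1 cell 1, which carried the endothelial list, at 219 RPKM.

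**Figure D5:**
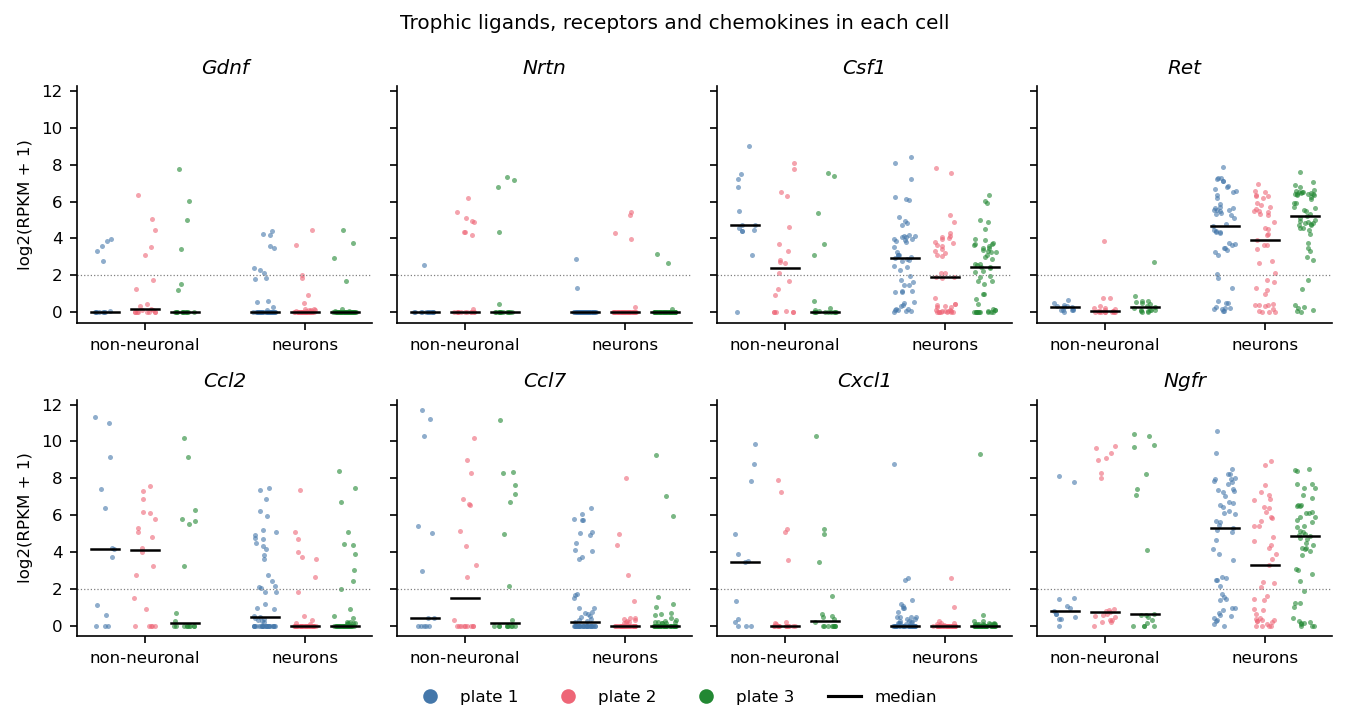
Log2(RPKM + 1) of trophic ligands (Gdnf, Nrtn, Csf1), receptors (Ret, Ngfr) and chemokines (Ccl2, Ccl7, Cxcl1) in every non-neuronal cell (left) and every neuron (right), by plate (color), with black bars at medians and a dotted line at the detection level of 2. Ret is below the line in 49 of 51 non-neuronal cells, while Gdnf is above it in 14 of the 51 and Nrtn in 13.

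Chemokine transcripts were higher in the non-neuronal cells. Of 12 cytokine genes, 7 were compared on every plate, all 7 were higher on all 3, against 24.9% of all genes, and 4 were at least 4-fold higher, against 1.32%: Ccl2, Ccl7, Cxcl1 and Ccl5. Ccl2, which draws monocytes, was detected in 28 of 51 non-neuronal cells and 37 of 149 neurons, with medians of 16.7, 16.6 and 0.0892 RPKM in non-neuronal cells of plates 1, 2 and 3, against 0.376, 0 and 0 RPKM in neurons. Its log2 ratios were 4.64, 2.50 and 2.92, and 3.83 on plate 1 without cell 38 and 1.72 on plate 3 without cell 20. Cxcl1, which draws neutrophils, had ratios of 3.76, 4.42 and 2.51, and with each plate's highest cell removed 2.68, 3.51 and -1.20. On plate 3 that cell was cell 20, a muscle list cell at 1259 RPKM. Ccl5 was at 6978 RPKM in plate 2 cell 37, which carried the muscle and mural lists. Its ratios were 2.49, 8.05 and 6.77, and 0.78, 6.40 and 3.71 without the highest cells, plate 1 cell 5 among them.

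Immediate early genes, which cells switch on within minutes of a stimulus, were on in both classes, with the list carried by 38 of 51 non-neuronal cells and 138 of 149 neurons. Of the 10, 5 were higher in non-neuronal cells on all plates, against 24.9% of all genes, and none was at least 4-fold higher or lower on all. Junb, a part of the AP-1 factor, had medians of 352 RPKM on plate 1 and 88.7 RPKM on plate 3 in non-neuronal cells, against 63.3 and 38.4 RPKM in neurons, and ratios of 1.92, 0.70 and 1.12. Myc, a growth regulator, had ratios of 3.20, 2.01 and 1.53. Cell cycle genes were scarce, with the list carried by 3 of 51 non-neuronal cells and 3 of 149 neurons. Plate 2 cell 53, a glia list cell, had the highest non-neuronal values of the replication genes Mcm5 and Tyms, at 194 and 47 RPKM.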

How the data were processed

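Per the labels' protocols, cells were picked by hand, and a kit gave each well its own index and pooled the wells before amplification, with no molecular identifiers. The submitters' processing notes name mm10. How reads were aligned, counted and assigned to a strand is not given in the sources used here, so a gene and an antisense neighbour may share reads. The authors deposited log2 values, log2(RPKM + 1), of 49492 genes in 204 cells, where RPKM is reads per kilobase and 1000000 reads; the scale was worked out from the values themselves. Columns were matched to cells through the labels. Whole reads were recovered with gene lengths of GENCODE M21 (31340 genes) or, for 6295 genes, the shortest length giving whole reads in every cell, within 0.01 reads plus 1e-05 of the count, for 100% of 2375655 values above 0. A cell's reads summed to 0.9992 to 1.00004 times the total its values imply.

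Class means, detection and ratios were computed in Python 3.11.15 with numpy 2.4.6 and pandas 2.3.3. Ratios have a pseudocount of 1 RPKM, which understates those of low genes. Exact Clopper-Pearson 95% intervals came from scipy 1.17.1, and where no cell was positive the upper limit is 3 cells of the total. Measured values chose the classes, so nothing was tested between them and there are no p-values; each plate is 1 sample. Reads that reached a wrong well were estimated from genes with at least 95% of a plate's reads in 1 cell (2, 11 and 1 genes on plates 1, 2 and 3). Per 1000000 reads of such a gene, the median other cell held 56.7, 85 and 34.1 reads, the last from 1 gene. Plates 2 and 3 have an index series and 49 well numbers in common and may not be independent libraries. The computation was tested on simulated data, with a spread between cells that was set and not taken from these cells. Of genes given a log2 change of 2, 100% had the right sign on all plates but only 9% were past 4-fold on all 3. With a log2 change of 4 it was 100%, and of unchanged genes 0%. Counts past 4-fold on all plates can thus leave out most changes near 4-fold.

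The members and the 21 gene lists (10 of lineages, 11 of functions) were chosen with earlier results of these data known. Named genes are, per direction, the 12 with the largest ratio on their smallest plate, with the same sign on all plates and, in the higher class of each plate, a mean of 10 RPKM and detection in 50% of its cells. Genes named Gm or Rik, mitochondrial and ribosomal protein genes and the 5 choosing genes were left out. Acta2, Tagln, Des, Col1a1, Sox10, Slc17a6 and the 3 members of highest mean per list belong to the rule too, of which those that add little are not described. Other genes and single cells were named after their values were seen. Doublets were not called, given 204 cells. Alternatives changed the rule genes' threshold, the pseudocount, the filters, the detection level and the plates used.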

Additional observations from a re-analysis of the deposited data

Results flagged for a closer look

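In 6 of the 204 listed genes the non-neuronal cells were at least 4-fold above neurons on 1 plate and at least 4-fold below them on another. The share of all genes that did so is not given here, so the count of 6 is no result about the lists. The difference between plates was not tested, since each plate is 1 sample. The highest minus the lowest plate log2 ratio was 8.90 for Krt8, 8.70 for Krt18 and 5.86 for Epcam. These had plate 2 ratios of 3.97, 4.23 and 3.48, which became -2.35, -2.62 and -1.85 without cell 14. The difference was 6.18 for Krt19, whose ratios of 2.62 on plate 2 and -3.56 on plate 3 became -0.33 without cell 14 and 0.00 without the neuron of plate 3 numbered 64. It was 8.62 for the complement gene C1qa, with -2.98 on plate 1 and 5.64 on plate 3. It was 5.87 for Lum (lumican), a fibroblast proteoglycan. C1qa and Lum were each detected in only 3 of 51 non-neuronal cells, and in 9 and 12 of 149 neurons, so few cells set these ratios.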

How the results depend on the processing

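The number of genes at least 4-fold higher on all plates, 1.32% of those compared, became 198 with 0 against 5 of the choosing genes, 75 with non-neuronal cells of at most 1 lineage list, 233 with a pseudocount of 0.1 and 72 by the difference of mean log2 values. They became 362 without plate 1, 255 without plate 2 and 216 without plate 3, where fewer plates had to agree. The 815 lower genes became 487 where a mean of 10 RPKM was needed, and between 622 and 1191 under the other alternatives. The muscle share of 47.1% became 66.7% with detection at 1 RPKM. The glia share of 21.6% became 7.84% with detection at 10 RPKM and 0% where 75% of members were needed. The fibroblast share of 13.7% became 1.96% at 75% of members and 0% on plate 3 alone. All other alternatives left the 3 shares within the main 95% intervals. For the limit to at most 1 lineage list this is no check, since that limit counts the 3 lists themselves. The alternatives on mitochondrial reads, cell 48 and lineage lists were chosen after seeing the data. Of 84 named genes, 43 were past 4-fold on each plate. None fell below with a pseudocount of 0.1 or with 0 against 5 choosing genes, 13 did by the difference of mean log2 values, and 9 did without the highest cell of each plate, where Lyz2 reversed to -4.40. No paired analysis was possible because the results come from no test, the classes having been chosen by measured values; cell numbers pair nothing across plates, and the ratios were taken within each plate. Depth was at least 711434 reads in every non-neuronal cell, but the number of cells, 13 to 20 a plate, limits the shares.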
